A study of Homo sapiens with 6 samples.

Results

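The genes described here are 35 genes of glucose uptake, glycolysis, lactate and pyruvate handling, taken as a named list of genes by function. All 35 were among the 28848 genes tested, and 33 of them received an adjusted p. PFKFB1 and PDK4 were too low for one.

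Glycolysis takes glucose from its transporters through hexokinase, phosphofructokinase, aldolase and the enzymes of the lower pathway to pyruvate. Pyruvate is then reduced to lactate by lactate dehydrogenase and exported, or carried into mitochondria and oxidized by the pyruvate dehydrogenase complex, which the PDK kinases switch off. Red cells lack mitochondria and depend on glycolysis, and cells of that lineage make a pyruvate kinase of their own (PKLR) and use BPGM to make 2,3-bisphosphoglycerate, which lowers the oxygen affinity of hemoglobin.

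RNA was measured in K562, an erythroid leukemia cell line, 3 libraries per group, after lentiviral delivery of a pLKO.1 short hairpin RNA against luciferase (shCtrl) or against PCBP1 (shPCBP1), a protein that binds C-rich RNA. Both groups were exposed to 8 µg/mL polybrene overnight and selected for 4 days in 3 µg/mL puromycin, and each group rests on 1 named construct. The labels number the libraries 1 to 3 in each group and do not say whether they came from separate cultures, so the p-values measure the spread between these libraries, which may be technical. The question was how mRNA levels and mRNA forms differ when PCBP1 is reduced.

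Total estimated counts were between 83033656 and 140522444 in the shCtrl libraries and between 67066747 and 85121124 in the shPCBP1 libraries. PCBP1 itself was at 18.1% of its shCtrl level (log2 fold change -2.47, SE 0.0439). All 10 erythroid markers checked were measured, with summed normalized counts between 810522 and 963092 in shCtrl and between 933926 and 1012771 in shPCBP1. Of the 10, the fetal globin gene HBG1 (log2 fold change 0.16, DESeq2 adjusted p = 0.00356) and TAL1, an erythroid transcription factor (log2 fold change 0.19, DESeq2 adjusted p = 2.00e-05), were higher, EPOR, the erythropoietin receptor (log2 fold change -0.26, DESeq2 adjusted p = 9.10e-04), was lower, and 7 did not pass. The 4 megakaryocyte markers summed to between 2137 and 2766 in shCtrl and between 558 and 924 in shPCBP1, with ITGA2B lower (log2 fold change -1.91, DESeq2 adjusted p = 9.05e-11), while GP9 and PF4 stayed under the count filter. The 3 fibroblast markers summed to between 2214 and 2453 in shCtrl and between 1656 and 2022 in shPCBP1. COL1A1 and COL1A2 were lower at a DESeq2 adjusted p under 0.05, and DCN, with a mean normalized count of 9.47, had no adjusted p. The summed T cell, B cell and monocyte markers overlapped between the groups, with CD2 and MS4A1 under the count filter. In RNA of bulk cells, fewer cells of a type and less RNA per cell cannot be told apart, and the part these shifts have in the values below was not tested.

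The pathway was highly expressed, and its summed level was slightly higher in each shPCBP1 library than in any shCtrl library. This sum is weighted to the most abundant genes, of which GAPDH and ENO1 were higher. It does not describe the genes singly, since 15 of the 35 had a log2 fold change above 0 and 20 below. In TPM, which is scaled for transcript length, the 35 genes summed to 9612, 9469 and 9610 in shCtrl and to 9896, 9817 and 9760 in shPCBP1, between 0.947% and 0.990% of all TPM in a library. GAPDH stood highest (TPM 2475 ± 97.8 in shCtrl and 2667 ± 47.9 in shPCBP1, SD, n = 3), then ENO1 (TPM 1577 ± 22.9 and 1701 ± 25.0) and ALDOA (TPM 1236 ± 25.4 and 1216 ± 5.80), while PDK4, PFKFB1 and PDK3 stayed under a TPM of 1.

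Of the single genes, 15 of the 33 genes with an adjusted p passed the test, which here means a DESeq2 adjusted p under 0.05 whatever the size of the change. Of these, 6 were higher in shPCBP1 (SLC2A1, HK2, PFKP, GAPDH, ENO1 and PKM) and 9 were lower (PFKL, PFKFB4, ALDOC, PGAM1, ENO2, PKLR, SLC16A3, PDHB and PDK1). The 6 make up 18.2% of the 33, against 17.7% of all 17095 genes with an adjusted p that were higher, and the 9 make up 27.3%, against 13.5% of all genes that were lower. Together they are 45.5%, against 31.2% in either direction. Abundant genes pass more often in these libraries, and of the 30 members with a mean normalized count over 2000, 14 passed (46.7%), against 47.4% of all 7626 genes of that abundance. The share that passed was therefore close to that of other abundant genes. No share of abundant genes was computed for each direction alone. The 18.2% and the 27.3% thus have no background matched for abundance. The percentages of all genes and of abundant genes also stand as the background for the other gene lists given below.

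The changes were small. Of the 33 genes with an adjusted p, 0 passed with a log2 fold change beyond 1 in either direction and a mean count over 10, a mark that 1.37% of all genes reached. The median log2 fold change of the 35 genes was -0.02 (0.00 for all genes with an adjusted p and 0.05 for all genes with a mean count over 2000), with 15 genes above 0 and 20 below. The 3 shPCBP1 libraries all lay above or all below the 3 shCtrl libraries for 18 of the 35 genes, the 15 that passed and PFKFB2, BPGM and PDK4. That is 51.4%, against 31.2% of all 28848 genes, and for members with a mean count over 2000 it is 16 of 30 (53.3%), against 58.3% of all genes of that abundance, so the share was not above that of other abundant genes.

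**Figure D1:**
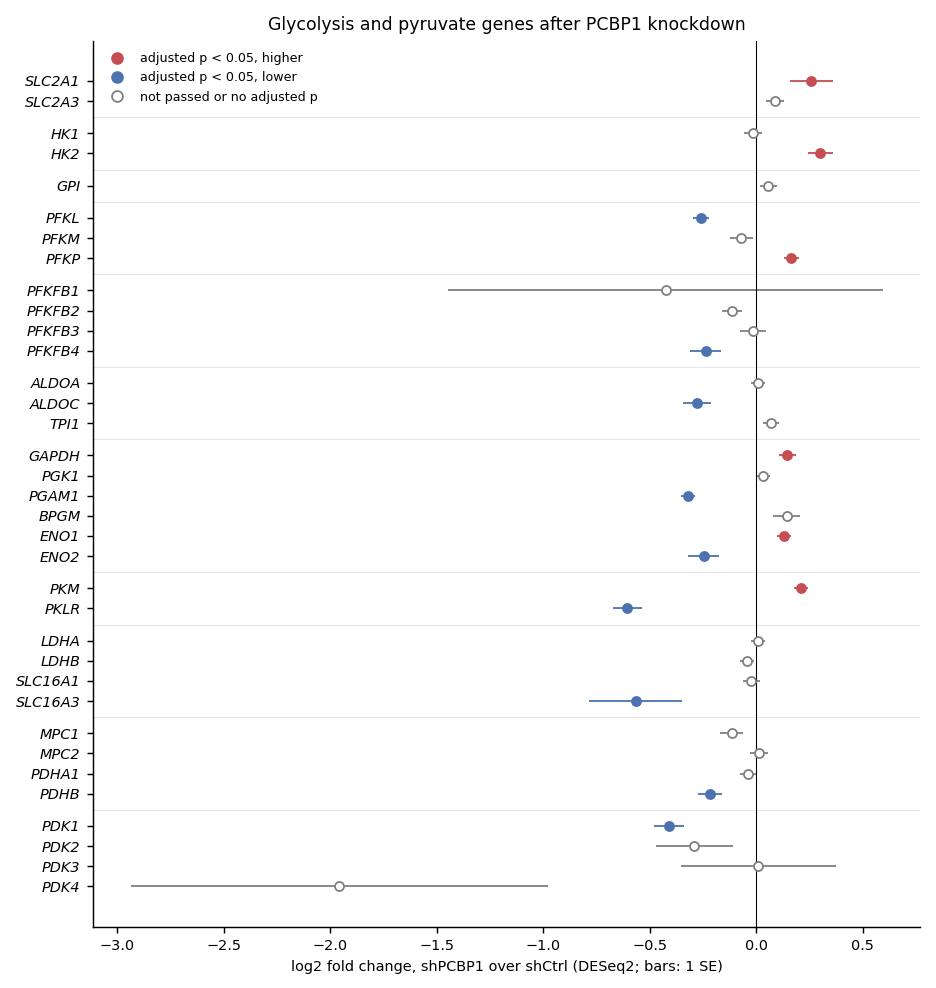
Log2 fold change of shPCBP1 over shCtrl (DESeq2, horizontal axis) for each of the 35 genes, ordered from glucose uptake at the top to the PDK kinases at the bottom, with bars of 1 SE (n = 3 per group). The 6 filled red points were higher and the 9 filled blue points lower at an adjusted p under 0.05. PKM and PKLR, PFKP and PFKL, and ENO1 and ENO2 lie on opposite sides of 0, and the point of PDK4 at the far left (-1.96) has a wide SE (0.979) and no adjusted p.

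At 3 steps (pyruvate kinase, phosphofructokinase and enolase) isozymes passed in opposite directions, and pyruvate kinase, the last step of glycolysis, had the largest difference between them. PKM, the isozyme of most tissues (ENSG00000067225.21, chr15:72199029-72231819, minus strand, GRCh38), stood at normalized counts of 46122, 44638 and 44795 in shCtrl against 53588, 52672 and 50664 in shPCBP1. All 3 shPCBP1 libraries were above all 3 shCtrl libraries (log2 fold change 0.21, SE 0.0335, DESeq2 adjusted p = 6.45e-09). PKLR, whose gene encodes the liver and red cell isozymes (ENSG00000143627.19, chr1:155289293-155301438, minus strand), had 7376, 7026 and 8642 in shCtrl against 5256, 5015 and 4891 in shPCBP1. It fell in every shPCBP1 library to below the lowest shCtrl library (log2 fold change -0.60, SE 0.0670, DESeq2 adjusted p = 1.37e-17), the largest decrease by size among the genes that passed. In TPM, PKM made up 89.4% ± 1.11 of the summed pyruvate kinase in shCtrl and 93.8% ± 0.0963 in shPCBP1 (SD, n = 3). HCN3 lies on the opposite strand of PKLR with 19.7% of its reads (log2 fold change -0.03, DESeq2 adjusted p = 0.876), and whether the counting used strand was not given in the sources used here.

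Phosphofructokinase, the committed step, split in the same manner among its 3 subunit genes. PFKL, the liver-type subunit (ENSG00000141959.17, chr21:44300051-44327376, plus strand), stood at normalized counts of 15797, 15350 and 15381 in shCtrl against 13238, 12496 and 13146 in shPCBP1. PFKP, the platelet-type subunit (ENSG00000067057.19, chr10:3066333-3137718, plus strand), had 14710, 14443 and 14527 in shCtrl against 16504, 15934 and 16533 in shPCBP1. The groups did not overlap for either gene, with PFKL lower (log2 fold change -0.26, SE 0.0387, DESeq2 adjusted p = 6.00e-10) and PFKP higher (log2 fold change 0.16, SE 0.0357, DESeq2 adjusted p = 3.91e-05). PFKM, the muscle-type subunit, had 5695, 5728 and 5144 in shCtrl against 5073, 5356 and 5356 in shPCBP1, with overlapping groups (log2 fold change -0.07, SE 0.0556, DESeq2 adjusted p = 0.378). SENP1 lies on the opposite strand of PFKM with 104% of its reads (log2 fold change 0.06, DESeq2 adjusted p = 0.350). PFKP made up 42.5% ± 0.777 of the summed TPM of the 3 genes in shCtrl and 47.3% ± 0.387 in shPCBP1, PFKL 38.9% and 33.3%, and PFKM 18.6% and 19.4%.

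Among the PFKFB enzymes, which make and break fructose 2,6-bisphosphate, the activator of phosphofructokinase, 1 of 4 passed. PFKFB4 (ENSG00000114268.12, chr3:48517684-48562015, minus strand) had 2414, 2451 and 2366 in shCtrl against 2040, 1886 and 2212 in shPCBP1 and was lower (log2 fold change -0.24, SE 0.0732, DESeq2 adjusted p = 0.00583). Without shPCBP1 replicate 2 it missed the threshold (DESeq2 adjusted p = 0.0663). PFKFB2 lay lower in all 3 shPCBP1 libraries without passing (log2 fold change -0.11, DESeq2 adjusted p = 0.0557). With TMM factors PFKFB2 passed (DESeq2 adjusted p = 0.0284). It shares its locus with YOD1 on the opposite strand, which holds 335% of its reads. PFKFB3 had a log2 fold change of -0.02 (DESeq2 adjusted p = 0.882), and PFKFB1 had between 2.63 and 18.5 normalized counts over the 6 libraries.

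At the start of the pathway, glucose uptake and hexokinase each held 1 gene that rose and 1 that did not pass. SLC2A1, the glucose transporter GLUT1 (ENSG00000117394.24, chr1:42925353-42958893, minus strand), had 14927, 13590 and 16889 in shCtrl against 19300, 17817 and 17243 in shPCBP1, and all shPCBP1 libraries were above the highest shCtrl library (log2 fold change 0.26, SE 0.103, DESeq2 adjusted p = 0.0405). This call was not firm, since without shPCBP1 replicate 1, shPCBP1 replicate 3 or shCtrl replicate 1 the DESeq2 adjusted p was 0.179, 0.0586 and 0.151. SLC2A3, the transporter GLUT3, had a log2 fold change of 0.09 (DESeq2 adjusted p = 0.0897). HK2, the inducible hexokinase (ENSG00000159399.10, chr2:74834127-74893359, plus strand), had 8615, 8096 and 7526 in shCtrl against 10818, 9489 and 9527 in shPCBP1 and was higher (log2 fold change 0.30, SE 0.0594, DESeq2 adjusted p = 5.44e-06). HK1, the main hexokinase of these cells by TPM, had 75759, 71148 and 75908 in shCtrl against 77354, 73043 and 70023 in shPCBP1, with overlapping groups (log2 fold change -0.02, SE 0.0405, DESeq2 adjusted p = 0.825). GPI, the isomerase of the next step, did not pass (log2 fold change 0.06, DESeq2 adjusted p = 0.289).

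In the aldolase step the minor isozyme fell. ALDOC (ENSG00000109107.14, chr17:28573115-28576948, minus strand) had 7367, 7577 and 7025 in shCtrl against 5517, 5795 and 6826 in shPCBP1 (log2 fold change -0.28, SE 0.0665, DESeq2 adjusted p = 2.42e-04). The groups did not overlap, although shPCBP1 replicate 3 lay just under the lowest shCtrl library. RSKR overlaps ALDOC on the same strand, holds 73.5% as many reads and was lower as well (log2 fold change -0.26, DESeq2 adjusted p = 5.39e-06), so reads of the pair may be split between them. ALDOA, the main aldolase, had a log2 fold change of 0.01 (DESeq2 adjusted p = 0.879), and TPI1, which interconverts the triose phosphates, 0.07 (DESeq2 adjusted p = 0.139).

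Of the 6 genes of lower glycolysis, 2 rose and 2 fell. GAPDH, which oxidizes glyceraldehyde 3-phosphate (ENSG00000111640.15, chr12:6534512-6538374, plus strand), had 213588, 201657 and 222565 in shCtrl against 243985, 234254 and 227031 in shPCBP1 (log2 fold change 0.15, SE 0.0395, DESeq2 adjusted p = 0.00148). With transcript length offsets its DESeq2 adjusted p was 0.0566. ENO1, the main enolase (ENSG00000074800.16, chr1:8861000-8879190, minus strand), had 204698, 193034 and 202199 in shCtrl against 224070, 220543 and 212504 in shPCBP1 (log2 fold change 0.13, SE 0.0337, DESeq2 adjusted p = 6.85e-04). The 2 most abundant genes of the pathway were thus higher in each shPCBP1 library than in any shCtrl library.

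PGAM1, the mutase that turns 3-phosphoglycerate into 2-phosphoglycerate (ENSG00000171314.9, chr10:97426191-97433444, plus strand), had 32876, 31800 and 32230 in shCtrl against 25319, 26303 and 26025 in shPCBP1. It had the lowest adjusted p of the 35 genes, with a narrow spread in each group (log2 fold change -0.32, SE 0.0332, DESeq2 adjusted p = 5.32e-20). Its 13 annotated pseudogenes held at most 0.668% of its reads in any library. ENO2, the enolase best known from neurons (ENSG00000111674.9, chr12:6913745-6923698, plus strand), had 2390, 2622 and 2339 in shCtrl against 1981, 2033 and 2177 in shPCBP1 and was lower (log2 fold change -0.25, SE 0.0728, DESeq2 adjusted p = 0.00365). BPGM, the red cell enzyme of 2,3-bisphosphoglycerate, had 2159, 2122 and 2135 in shCtrl against 2406, 2282 and 2396 in shPCBP1, which lay higher in all 3 shPCBP1 libraries but missed the threshold (log2 fold change 0.14, SE 0.0646, DESeq2 adjusted p = 0.0795). PGK1, which makes ATP in this stretch, had a log2 fold change of 0.03 (DESeq2 adjusted p = 0.507).

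Lactate production and export showed 1 gene that passed, at a low level. LDHA, the dehydrogenase subunit linked to lactate production, had 77026, 73325 and 73772 in shCtrl against 76663, 74944 and 74082 in shPCBP1, and LDHB, the heart-type subunit, had 70224, 68523 and 69882 in shCtrl against 69323, 67870 and 65234 in shPCBP1. Both overlapped between the groups, with log2 fold changes of 0.01 (DESeq2 adjusted p = 0.861) and -0.04 (DESeq2 adjusted p = 0.340). The lactate carrier SLC16A1 (MCT1) had a log2 fold change of -0.02 (DESeq2 adjusted p = 0.713). SLC16A3 (MCT4, ENSG00000141526.18, chr17:82217934-82261129, plus strand), the other lactate carrier, had 226, 383 and 299 in shCtrl against 181, 218 and 212 in shPCBP1 (log2 fold change -0.57, SE 0.217, DESeq2 adjusted p = 0.0317). The groups were separated by less than the spread of the shCtrl libraries, and without shCtrl replicate 2 the log2 fold change was -0.37 (DESeq2 adjusted p = 0.248). Leaving out any other library but shCtrl replicate 1 also took it over the threshold (DESeq2 adjusted p between 0.0633 and 0.144). Its locus overlaps the far more abundant CSNK1D on the opposite strand (log2 fold change 0.16, DESeq2 adjusted p = 4.29e-04). On the same strand ENSG00000280407 (log2 fold change 0.34, DESeq2 adjusted p = 0.368) and ENSG00000275888 (-0.02, 0.974) overlap SLC16A3. They hold 52.7% and 22.9% as many reads, so reads may be split among these genes.

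Of the genes that take pyruvate into mitochondrial oxidation, 1 of 4 passed. PDHB, the beta subunit of pyruvate dehydrogenase (ENSG00000168291.13, chr3:58427630-58433857, minus strand), had 4882, 4685 and 4511 in shCtrl against 4235, 4029 and 3843 in shPCBP1 and was lower (log2 fold change -0.22, SE 0.0570, DESeq2 adjusted p = 9.49e-04). Its partner in the same enzyme, the alpha subunit PDHA1, had 18090, 17913 and 18651 in shCtrl against 18220, 17503 and 17524 in shPCBP1, with overlapping groups (log2 fold change -0.04, SE 0.0365, DESeq2 adjusted p = 0.481). The 2 subunits of the mitochondrial pyruvate carrier did not pass. Log2 fold changes were -0.12 for MPC1 (DESeq2 adjusted p = 0.0920) and 0.01 for MPC2 (DESeq2 adjusted p = 0.846). With TMM factors MPC1 passed (DESeq2 adjusted p = 0.0456).

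Among the kinases that inactivate pyruvate dehydrogenase, PDK1 (ENSG00000152256.14, chr2:172555373-172608669, plus strand) was lower, with 2403, 2522 and 2383 in shCtrl against 1736, 1841 and 1922 in shPCBP1. All 3 shPCBP1 libraries lay below the lowest shCtrl library (log2 fold change -0.41, SE 0.0702, DESeq2 adjusted p = 9.55e-08). With transcript length offsets the difference was smaller (log2 fold change -0.24, DESeq2 adjusted p = 0.0355). PDK2 (log2 fold change -0.29, DESeq2 adjusted p = 0.234) and PDK3 (log2 fold change 0.01, DESeq2 adjusted p = 0.989) both missed the threshold. PDK4 had 16.9, 13.0 and 23.6 in shCtrl against 0, 7.12 and 6.92 in shPCBP1, too few for an adjusted p.

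**Figure D2:**
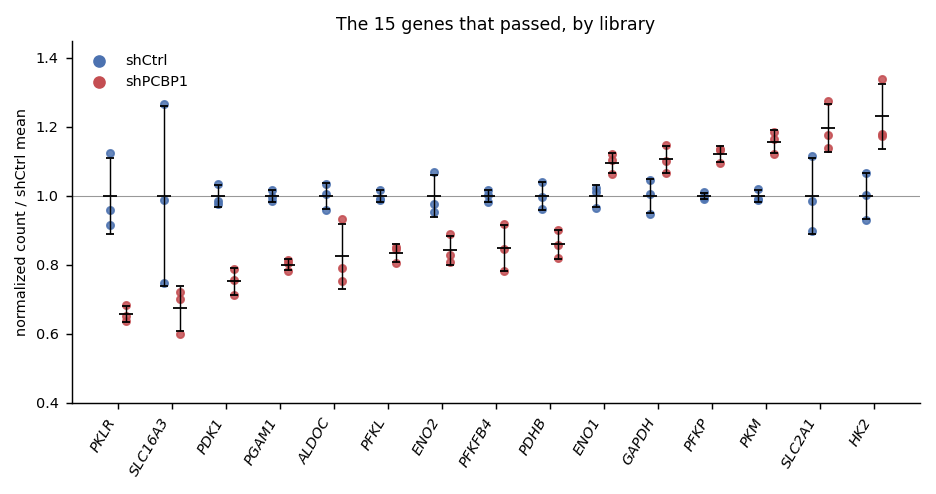
Normalized counts of the 15 genes with a DESeq2 adjusted p under 0.05, each divided by its shCtrl mean (vertical axis, which starts at 0.4), one point per library, with black marks for the mean and SD (n = 3 per group). Genes are ordered by log2 fold change from PKLR at -0.60 to HK2 at 0.30. The groups do not overlap for any of the 15, and the shCtrl libraries of SLC16A3 spread the most.

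Isozyme composition was compared per length as each gene's share of the summed TPM of its family. Besides PKM and PFKP, the groups did not overlap for HK1 (93.8% ± 0.485 in shCtrl and 92.3% ± 0.263 in shPCBP1 of HK1 and HK2, SD, n = 3), ALDOA (95.0% ± 0.337 and 95.9% ± 0.493 of ALDOA and ALDOC), ENO1 (99.0% ± 0.0947 and 99.2% ± 0.0995 of ENO1 and ENO2), LDHA (39.6% ± 0.741 and 40.8% ± 0.272 of LDHA and LDHB) and MPC1 (63.3% ± 0.268 and 61.1% ± 1.13 of MPC1 and MPC2). Of these 7 genes, 1 tested per family, PFKP shifted by 4.84 points and PKM by 4.37, and HK1, ALDOA, ENO1, LDHA and MPC1 by less. With protein-coding transcripts only, the difference for LDHA was 0.336 points (exact permutation test, two-sided, p = 0.6). The groups overlapped for SLC2A1, SLC16A1 and PDK1. In the 7 families without overlap the exact permutation test (two-sided) gave p = 0.1, the smallest that 3 against 3 allows, and 0.143 when adjusted over the 10 families, so no family could reach the threshold of 0.05.

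**Figure D3:**
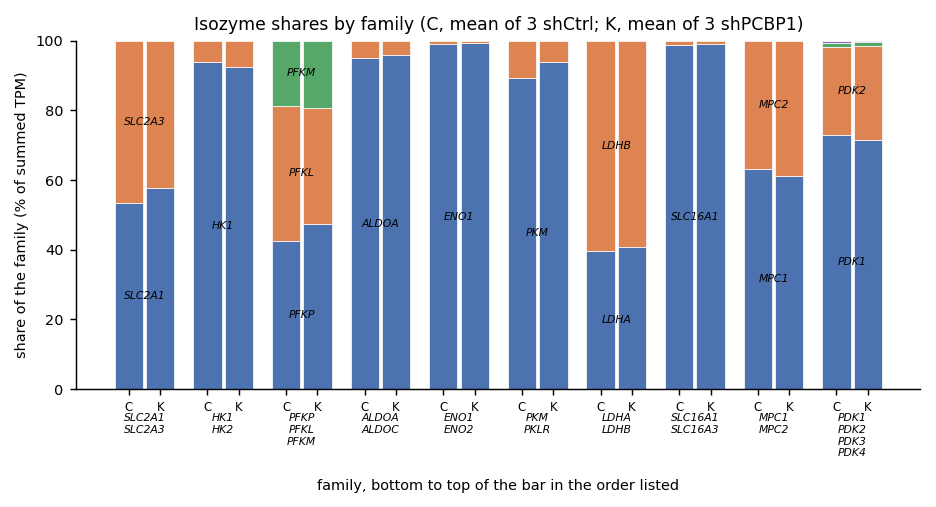
Share of each isozyme in the summed TPM of its family (vertical axis, percent), as stacked bars of the mean of 3 shCtrl libraries (C) and of 3 shPCBP1 libraries (K), for 10 families. PFKP rose from 42.5% to 47.3% of phosphofructokinase and PKM from 89.4% to 93.8% of pyruvate kinase, and the groups overlap for SLC2A1, SLC16A1 and PDK1.

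PKM has a pair of mutually exclusive exons of 167 bases each, known by their place in the gene as exon 9 (the PKM1 form of muscle and brain) and exon 10 (the PKM2 form of proliferating cells). They are shown because the choice between them sets which enzyme is made, with the bases that differ between them in capitals (GRCh38, written along the minus strand). Over their length 105 bases are identical and 62 differ (62.9% identity).
PKM exon 9 (chr15:72203022-72203188): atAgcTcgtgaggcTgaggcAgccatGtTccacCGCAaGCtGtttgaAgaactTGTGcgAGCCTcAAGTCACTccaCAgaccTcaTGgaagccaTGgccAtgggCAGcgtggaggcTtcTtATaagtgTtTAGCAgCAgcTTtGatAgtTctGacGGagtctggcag
PKM exon 10 (chr15:72202454-72202620): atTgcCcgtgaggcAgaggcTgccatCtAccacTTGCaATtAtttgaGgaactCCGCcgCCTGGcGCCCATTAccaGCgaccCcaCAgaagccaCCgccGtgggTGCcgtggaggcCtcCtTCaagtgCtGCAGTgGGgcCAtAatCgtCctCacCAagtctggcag

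K562 used exon 10 almost throughout. Forms with exon 10 made up 98.6%, 99.1% and 98.5% of the TPM of exon 9 and exon 10 forms in shCtrl and 96.5%, 97.1% and 97.4% in shPCBP1. The means were 98.7% ± 0.290 and 97.0% ± 0.480 (SD, n = 3), a difference of -1.72 points without overlap of the groups (exact permutation test, two-sided, p = 0.1, the smallest 3 against 3 allows). The exon 9 forms had a summed TPM of 3.51, 2.42 and 3.71 in shCtrl against 10.1, 8.46 and 7.22 in shPCBP1, so every shPCBP1 library lay above every shCtrl library. The exon 10 forms also lay higher, at 253, 253 and 243 in shCtrl against 278, 282 and 275 in shPCBP1. Among the exon 9 forms, the groups were separate for PKM-219 and PKM-204, given at the end, but not for every transcript. The coding transcript PKM-201 overlapped, with 0.856, 0.749 and 1.01 in shCtrl against 0.935, 1.33 and 1.86 in shPCBP1. A transcript that covers only part of an exon could count as a form with it.

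Genes known to act on this exon choice were measured too, as a list of 8, all with a mean normalized count over 2000. Among all genes of that abundance, 47.4% passed in either direction. Of the 8, 3 were higher (37.5%, against 17.7% of all genes) and 0 lower by DESeq2. They were PTBP1, which represses exon 9 (log2 fold change 0.29, DESeq2 adjusted p = 3.83e-15), its relative PTBP3 (log2 fold change 0.20, DESeq2 adjusted p = 9.26e-08) and SRSF3, a splicing factor that favors exon 10 (log2 fold change 0.11, DESeq2 adjusted p = 0.0478).

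The use of single transcripts was tested with limma on the log2 ratio of a transcript's TPM to that of the rest of its gene, across 24399 transcripts of all genes. Of 44 transcripts in 21 of the 35 genes, 4 were called (adjusted p under 0.05 and a share that differed by over 5 points), which is 9.09%, against 1.09% of all transcripts tested. At an unadjusted p under 0.05 there were 10. The calls in SLC16A1, given below, are a falling and a rising share of the same gene. They are not separate shifts, so the 9.09% counts that gene more than once, as the 1.09% may for other genes. PFKM-225, a coding transcript that skips exon 10, took 5.96, 9.63 and 6.44 in shCtrl against 19.6, 22.0 and 20.8 in shPCBP1 as percent of PFKM TPM. All shPCBP1 libraries exceeded all shCtrl libraries, with means of 7.35% ± 1.99 and 20.8% ± 1.21 (SD, n = 3, limma adjusted p = 0.0266).

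LDHA-203 fell from a mean share of 65.8% ± 0.840 to 58.2% ± 1.48 of LDHA TPM (limma adjusted p = 0.0414), with 66.7, 65.3 and 65.3 in shCtrl against 56.7, 59.7 and 58.2 in shPCBP1. The groups did not overlap. In SLC16A1 the main coding transcript SLC16A1-201 went from 85.5% ± 1.81 to 75.4% ± 2.59 (limma adjusted p = 0.0475), and SLC16A1-205, a transcript with no defined coding sequence, from 11.3% ± 1.42 to 20.6% ± 2.44 (limma adjusted p = 0.0436). These calls depended on the settings, with 2 called at a pseudocount of 0.01 TPM, 2 with protein-coding transcripts only, 1 on estimated counts and 0 with no minimum share. Leaving out any 1 of the 6 libraries left 0 or 1.

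The exon that PFKM-225 skips was followed with the same TPM estimates. PFKM-225 is 1 of the 2 transcripts counted as skipping it, so its values are not separate from the result for that transcript. Inclusion was the share of TPM from annotated transcripts that hold a cassette exon among those that hold it or skip it between the same neighboring exons, an analysis added after the transcript results were seen. Exon 10 of the 23 exons of PFKM-203 (chr12:48135291-48135383, plus strand, 93 bases, a multiple of 3) was included at 86.6%, 82.1% and 84.6% in shCtrl and at 60.5%, 57.0% and 56.6% in shPCBP1. The groups lay far apart, with means of 84.4% ± 2.27 and 58.1% ± 2.16 (SD, n = 3) and a difference of -26.4 points. The exact permutation test (two-sided) gave its smallest p of 0.1, and limma across 37773 cassette exons gave p = 1.47e-04 and an adjusted p of 0.0853, over the threshold. The summed TPM of forms that hold the exon was 16.5, 17.4 and 13.9 in shCtrl against 9.69, 9.97 and 10.1 in shPCBP1, and that of forms that skip it 2.56, 3.81 and 2.52 in shCtrl against 6.32, 7.52 and 7.72 in shPCBP1. PFKM did not pass as a gene, while in every shPCBP1 library the counted forms with the exon lay lower than in any shCtrl library. The counted forms without it lay higher. These forms are only a part of PFKM, whose TPM over all transcripts was 34.8, 31.9 and 31.3 in shCtrl against 30.5, 33.6 and 35.2 in shPCBP1. PFKM-212, counted on neither side, had a TPM of 1.33 ± 0.933 in shCtrl and 7.14 ± 1.41 in shPCBP1 (SD, n = 3). The part this uncounted form has in the difference in inclusion was not tested.

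Exon 3 of the 8 exons of LDHA-205 (chr11:18399431-18399548, plus strand, 118 bases, not a multiple of 3) was included at 98.7%, 98.5% and 98.2% in shCtrl and at 95.2%, 96.0% and 93.0% in shPCBP1. The means were 98.5% ± 0.266 and 94.8% ± 1.55 (SD, n = 3), a difference of -3.69 points without overlap. The exact permutation test (two-sided) gave p = 0.1, and limma across all cassette exons gave an adjusted p of 0.162. On estimated counts in place of TPM the difference was -2.33 points (limma adjusted p = 0.190). The skipping form came from LDHA-222, annotated as a target of nonsense-mediated decay, at a TPM of 6.52, 7.76 and 9.002 in shCtrl against 23.8, 19.9 and 36.2 in shPCBP1.

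Of 100 cassette exons in 26 of the 35 genes, 0 were called by limma (adjusted p under 0.05 and over 5 points), against 0.0344% of all, and 6 had an unadjusted p under 0.05 (6%, against 9.95% of all). The groups were separate by over 5 points for 2 of the 100 (2%, against 6.85% of all), namely PFKM exon 10 and a PFKFB4 exon (10.8% to 3.69%). Both were named after their values were seen.

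**Figure D4:**
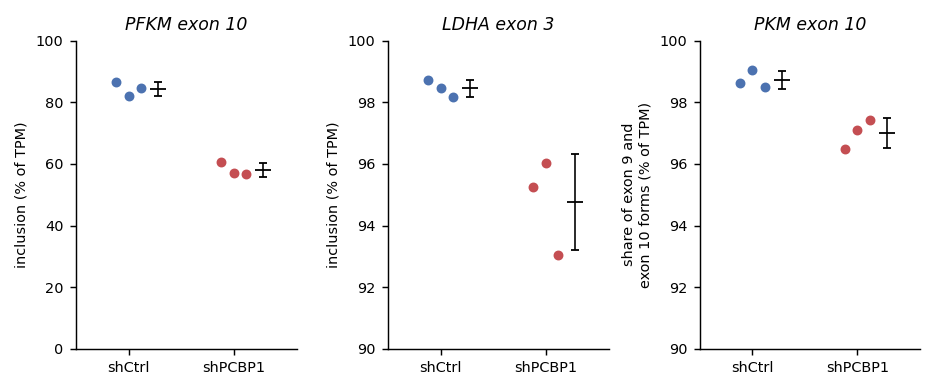
Percent of TPM that includes PFKM exon 10 (left, axis from 0 to 100), LDHA exon 3 (middle, axis from 90 to 100) and PKM exon 10 among exon 9 and exon 10 forms (right, axis from 90 to 100), one point per library, with the mean and SD beside them (n = 3 per group). In each panel all 3 shPCBP1 libraries lie below all 3 shCtrl libraries, by 26.4 points on average for PFKM, 3.69 for LDHA and 1.72 for PKM.

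PCBP1 binds runs of C, so the 50 bases just upstream of each of these exons are shown (GRCh38, written along the strand of the transcript, ending at the last intron base), with runs of CCC or more in capitals.
PFKM exon 10 window (chr12:48135241-48135290, plus strand): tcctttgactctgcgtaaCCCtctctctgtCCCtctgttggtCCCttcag
LDHA exon 3 window (chr11:18399381-18399430, plus strand): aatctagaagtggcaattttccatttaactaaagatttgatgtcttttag
PKM exon 9 window (chr15:72203189-72203238, minus strand): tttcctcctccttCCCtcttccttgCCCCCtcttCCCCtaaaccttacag
PKM exon 10 window (chr15:72202621-72202670, minus strand): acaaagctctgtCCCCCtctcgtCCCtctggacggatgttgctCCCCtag

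The PFKM window was 38% C with 3 separate runs, the PKM windows were 50% C before exon 9 and 40% C before exon 10 with 3 runs each, and the LDHA window was 12% C with 0 runs. The median over the windows of 34153 cassette exons was 22% C, the 10th and 90th percentiles were 10% and 38%, and 44.6% of windows held CCC on the transcript strand. The PFKM window was thus at the level of the 90th percentile in C, while the LDHA window lay near the low end. A match of these letters does not show binding.

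The PFKM and LDHA exons themselves are given with 20 bases of intron on each side, the exon in capitals, since these are the sequences lost from the skipping forms.
PFKM exon 10 with flanks (chr12:48135271-48135403, plus strand): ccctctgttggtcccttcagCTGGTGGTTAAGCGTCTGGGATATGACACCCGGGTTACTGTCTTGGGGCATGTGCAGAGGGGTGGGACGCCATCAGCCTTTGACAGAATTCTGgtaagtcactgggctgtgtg
LDHA exon 3 with flanks (chr11:18399411-18399568, plus strand): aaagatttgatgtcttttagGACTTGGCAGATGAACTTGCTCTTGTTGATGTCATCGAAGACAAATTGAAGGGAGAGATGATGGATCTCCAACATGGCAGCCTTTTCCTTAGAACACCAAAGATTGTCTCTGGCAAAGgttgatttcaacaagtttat

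Pathways that branch from glycolysis and pyruvate were listed alongside. Of all genes, 17.7% were higher and 13.5% lower, and of those with a mean normalized count over 2000, 47.4% passed in either direction. Of 28 other isozymes and carriers, 17 had an adjusted p, 4 were lower (23.5%) and 0 higher by DESeq2. ENO3, the muscle enolase, fell from 1011 ± 69.9 to 420 ± 27.5 normalized counts (SD, n = 3, log2 fold change -1.27, DESeq2 adjusted p = 4.66e-25). LDHD, a mitochondrial D-lactate dehydrogenase, fell from 96.5 ± 20.2 to 17.9 ± 8.89 (log2 fold change -2.44, DESeq2 adjusted p = 1.12e-06). ENO2 and ENO3 were thus both lower while ENO1, the main enolase, was higher.

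In pyruvate carboxylation and gluconeogenesis 4 of the 8 genes with an adjusted p were lower (50%, against 13.5% of all genes) and 0 higher by DESeq2. All 8 had a mean normalized count over 2000, and 47.4% of all genes of that abundance passed in either direction, so the 50% was near that share. At the lowest adjusted p were GOT1, the cytosolic aspartate aminotransferase (log2 fold change -0.88, DESeq2 adjusted p = 8.62e-66), and PC, pyruvate carboxylase (log2 fold change -0.29, DESeq2 adjusted p = 1.11e-04). In the serine branch, which starts from 3-phosphoglycerate, 2 of 6 were higher (33.3%) and 1 lower (16.7%), with SHMT2, the mitochondrial enzyme that turns serine into glycine (log2 fold change -0.61, DESeq2 adjusted p = 3.89e-46), and PSPH, which makes serine (log2 fold change 0.18, DESeq2 adjusted p = 0.0131), at the lowest adjusted p.

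The citric acid cycle had 2 of 15 genes higher and 2 lower (13.3% each), with SDHD (log2 fold change -0.28, DESeq2 adjusted p = 6.46e-13) and SDHA (log2 fold change -0.14, DESeq2 adjusted p = 7.09e-05), subunits of succinate dehydrogenase, at the lowest adjusted p. Of 9 further genes of the pyruvate dehydrogenase complex and its phosphatases, 1 was higher (11.1%) and 0 lower, PDPR, a regulator of the phosphatase with close copies in the genome that may share its reads (log2 fold change 0.24, DESeq2 adjusted p = 4.77e-07). Of 14 targets of the hypoxia factor HIF outside glycolysis with an adjusted p, 3 were lower (21.4%) and 0 higher, led by P4HA1, a collagen prolyl hydroxylase (log2 fold change -0.37, DESeq2 adjusted p = 9.24e-08), and VEGFA, the endothelial growth factor (log2 fold change -0.30, DESeq2 adjusted p = 2.29e-04). Median log2 fold changes of the lists given here lay between -0.11 and 0.09, and nothing particular to a list follows from counts this small.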

How the data were processed

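Poly-A RNA of 6 K562 libraries was sequenced as paired reads of 150 cycles. Per the labels, the authors quantified reads with Salmon 1.10.2 (build hg38) and deposited, for each transcript, estimated counts, which are not normalized, and TPM, which is scaled for effective length and sums to 1000000 in each library. The annotation release and strand setting of the index were not given in the sources used here. Of 252045 transcripts, 251612 were matched to GENCODE release 44 (GRCh38), and the rest, at most 0.147% of reads, were left out.

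For each gene, the estimated counts of its transcripts were added up and rounded to whole numbers. DESeq2 1.42.0 was run on genes whose total over the libraries reached 10 (Wald test, two-sided, R 4.3.3), with group as the only term, and adjusted p-values covered all genes tested. Transcript shares and cassette exons were fitted with limma 3.58.1 on log2 ratios of TPM with a pseudocount of 0.1. Transcripts entered with a mean share between 10% and 90% and a gene mean TPM of at least 1. Isozyme and PKM exon shares took exact permutation tests (SciPy 1.17.1). The DESeq2 fit and the limma fit of transcript shares were tested on simulated data, and the limma fit of cassette exons was not. Depth, given above as estimated counts, limits the low genes most.

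The members and lists were chosen with earlier results of these data known. Values per library are given for members that passed and for PKM, PKLR, BPGM, HK1, HK2, LDHA, LDHB, GAPDH and PDHA1, and from each other list given the 2 genes with the lowest adjusted p among those that passed. Beyond this, the counts of PFKM and PDK4 and the fold change of SRSF3 were given after their values were seen. 1 list is not reported here. Alternatives were edgeR 4.0.16, TMM factors, length offsets, count filters, protein-coding features, replicate number as a block and leaving out each library. Replicates of a group differed by more than sampling noise (6.48 to 16.4 times by chi-square over its degrees of freedom), and all 6 libraries were kept. Sequences and coordinates were read from GRCh38.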

Additional observations from a re-analysis of the deposited data

How the results depend on the processing

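Over all alternatives, 11 of the 15 genes that passed kept their direction and stayed under the threshold. SLC2A1, PFKFB4, GAPDH and SLC16A3 lost it under at least 1, and SLC16A3 under 9 of 15. SLC2A1 also lost it without independent filtering (adjusted p = 0.0664) and with protein-coding transcripts only (0.209). The number passing ranged from 13 to 15 without 1 library (5 to 6 higher, 7 to 9 lower). It was 17 (6 higher, 11 lower) with TMM factors, with a mean count over 50 and with protein-coding genes only. In each of these, PFKFB2 and MPC1 also passed, both lower. With protein-coding transcripts only, PFKFB2 and LDHB passed as lower (DESeq2 adjusted p = 0.0108 and 0.0224). PFKFB2 passed without shPCBP1 replicate 3 (0.0263), MPC1 without shPCBP1 replicate 1 (0.0186) and SLC2A3, higher, without shCtrl replicate 1 (0.0223). The median log2 fold change of the members was -0.0545 with protein-coding transcripts only, and the cause was not tested.

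Deviations of libraries with the same number from their group means correlated at 0.0940, -0.0203 and -0.105 over 14181 genes, and the samples were taken as unpaired. With the replicate number as a block 14 members passed (6 higher, 8 lower), SLC16A3 did not (adjusted p = 0.0677), 0 transcripts were called for usage, and the PKM exon 10 share kept its difference of -1.72 points (exact sign-flip p = 0.25, the smallest 3 pairs allow).

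Of the transcripts called for usage (4), 2 were called with a pseudocount of 0.01 TPM, 0 with no minimum share, 1 on estimated counts, 2 with protein-coding transcripts only, and 0 to 1 without 1 library. PFKM exon 10, which missed the threshold in the main fit (limma adjusted p = 0.0853), passed with a pseudocount of 1 TPM (-26.4 points, limma adjusted p = 0.0163). The PDK1 share difference ran from -3.25 to 0.586 points without 1 library, turning positive without shCtrl replicate 1. The cause of these was not tested.

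Changes of sign were limited to members near 0 that did not pass in the main analysis. On the log2 scale, edgeR gave -0.00525 for ALDOA, -0.00443 for LDHA, -0.000101 for MPC2 and -0.00533 for PDK3. TMM factors gave -0.00527 for ALDOA, -0.00444 for LDHA, -0.000112 for MPC2 and -0.00513 for PDK3. Length offsets gave -0.00214 for ALDOA, -0.260 for PDK3, 0.0381 for PFKM and 0.162 for SLC16A1, which then passed (DESeq2 adjusted p = 0.0332). A mean count over 50 gave -0.00148 for ALDOA, -0.000670 for LDHA and -0.00120 for PDK3. Protein-coding genes only gave -0.0129 for ALDOA, -0.0121 for LDHA, -0.00778 for MPC2 and -0.0126 for PDK3. Protein-coding transcripts only gave -0.0228 for ALDOA, -0.0545 for LDHA, -0.0170 for MPC2 and -0.0124 for PGK1. Without 1 library, values ran from -0.0125 to 0.0372 for ALDOA, -0.00375 to 0.0330 for LDHA, -0.00368 to 0.0400 for MPC2, -0.100 to 0.222 for PDK3, -0.0542 to 0.0175 for HK1, -0.0362 to 0.0159 for PFKFB3 and -0.0501 to 0.00519 for SLC16A1.

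With 3 libraries per group no exact test of a share can go below 0.1, and changes of genes at a few counts, such as PDK4 and PFKFB1, were not detectable at this depth.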

Other observations

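Other transcripts of these genes stood apart without passing a test, and were picked after their values were seen. PKM-207, annotated as a retained intron form of PKM, had a TPM of 2.55, 3.69 and 6.05 in shCtrl against 12.9, 13.4 and 10.6 in shPCBP1, with groups that did not overlap (limma adjusted p = 0.265 with no minimum share). PKM forms with neither exon 9 nor exon 10 summed to a TPM of 17.8, 19.7 and 17.3 in shCtrl against 26.8, 25.6 and 24.1 in shPCBP1. PFKM-212, a coding transcript of PFKM, took a mean of 3.97% ± 2.59 of PFKM TPM in shCtrl and 21.5% ± 3.25 in shPCBP1 (SD, n = 3, limma adjusted p = 0.0511). Within the exon 9 forms of PKM, PKM-219 had a TPM of 0.311, 0.384 and 0.0636 in shCtrl against 4.34, 1.55 and 1.16 in shPCBP1. PKM-204 was listed at 0, 0 and 0.307 in shCtrl against 2.72, 1.31 and 1.85 in shPCBP1. PKM-215, with 2.35, 1.28 and 1.75 in shCtrl against 2.09, 4.27 and 2.35 in shPCBP1, overlapped between the groups, as did PKM-201.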
